A study of Mus musculus with 12 samples.

Results

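The genes described here encode 10 enzymes that make serine, one-carbon units and other non-essential amino acids: Phgdh, Psat1, Psph, Shmt2, Mthfd2, Mthfd1l, Aldh18a1, Pycr1, Gpt2 and Asns. They were chosen by name with earlier results of these data known, so their shares beside those of all genes are descriptions and not tests. Each was followed through every probe set whose platform annotation gave its symbol and no other. This found 8 of the 10 genes with 23 of the 22626 probe sets tested. Phgdh and Shmt2 had 4 probe sets each, Psat1, Mthfd2 and Asns 2 each, Psph 1, Aldh18a1 5 and Gpt2 3, while Mthfd1l and Pycr1 were not named on the array and have no value here. Each gene is described by its brightest probe set, with the others given beside it. Another 2 probe sets listed Phgdh together with a predicted gene (Gm8096 or Gm6756) and were left out. All 4 Phgdh probe sets used carry the manufacturer's x suffix, which marks probes that can also bind other transcripts. The brightest probe sets of Shmt2 and of Aldh18a1 carry it too, as do some of the other probe sets of Shmt2, Aldh18a1 and Asns.

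The cells were primary mouse embryonic fibroblasts, which are cells grown straight from embryos and not an established line, at passage 4. They were derived from wild-type or HtrA2 knockout mice (HtrA2 is a protease found between the mitochondrial membranes), and the sources name no strain, embryo number or way in which the knockout was made. Cells of each genotype received vehicle, whose make-up is not named, or the complex I inhibitor rotenone at 1 µM for 4 h, and each of the 4 groups has 3 arrays numbered 1 to 3. The stated aim was to find genes that respond differently to rotenone with and without HtrA2. Levels are log2 values made with RMA (background removal, normalization and summary over probes), so a difference of 1 is a doubling of signal. Member genes are not ranked by level, since probes differ in how brightly they bind. Brightness ranks and summed signals of the other lists are rough for the same reason.

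For the 3 arrays titled wild type with rotenone, the labels disagree, since the genotype field says knockout. Htra2 itself read from 8.83 to 9.32 on the 6 arrays titled wild type and from 7.57 to 7.87 on the 6 knockout arrays, so the ranges did not overlap and the titles were followed. It was lower in the knockout by 1.39 on the log2 scale in vehicle (-1.39, adjusted p = 0.00320, limma), and the sources do not say which exons the knockout removes. Of 11 fibroblast markers, such as Col1a1, Col1a2 and Vim, 8 were among the brightest 10% of probe sets, whereas 7 of 8 endothelial and 7 of 11 leukocyte markers were among the dimmest 40%. So were 4 of 9 epithelial, 4 of 7 muscle, 5 of 8 neural and 4 of 6 hepatocyte markers. The muscle marker Acta1 was among the brightest 10%, and the neural marker Nes lay at percentile 89.6. Array medians lay between 7.53 and 7.58. In all 4 groups the array numbered 3 stood apart from the other 2, so results are given with and without the replicate number as a block in the fit, that is, with and without comparing arrays of the same number with each other.

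Serine is made from the glycolytic intermediate 3-phosphoglycerate by PHGDH, PSAT1 and PSPH in turn. In mitochondria SHMT2 passes a carbon from serine to folate, and MTHFD2 and MTHFD1L carry that carbon on to formate, which leaves for purine and thymidylate synthesis in the cytosol. ALDH18A1 and PYCR1 make proline from glutamate, GPT2 exchanges the amino group between glutamate and alanine in mitochondria, and ASNS makes asparagine from aspartate. Many of these genes are known targets of ATF4, a transcription factor that is translated when the integrated stress response is active, and mitochondrial inhibitors are known to engage that response in cultured cells. Making serine and proline also consumes or produces NADH or NADPH, which links these enzymes to the state of the respiratory chain.

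The promoter windows of Asns, a textbook ATF4 target, and Gpt2, the member with the largest rotenone difference, are shown because the members are usually discussed with ATF4. They were read from RefSeq (GRCm38.p6), 5′ to 3′ in the direction of the gene, from 250 bases before to 50 bases after the annotated start. The Asns window is chr6:7693160-7693459 on the minus strand, and the Gpt2 window is chr8:85492326-85492625 on the plus strand. Capitals mark a match to TGATGNAA, the core of the composite element bound by ATF4 with a C/EBP partner.
Asns: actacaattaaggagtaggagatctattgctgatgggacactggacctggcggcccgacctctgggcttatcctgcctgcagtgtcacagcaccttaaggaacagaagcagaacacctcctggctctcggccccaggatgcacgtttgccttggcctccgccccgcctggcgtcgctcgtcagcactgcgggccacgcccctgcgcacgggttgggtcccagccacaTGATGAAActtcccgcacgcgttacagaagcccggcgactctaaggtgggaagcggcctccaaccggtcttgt
Gpt2: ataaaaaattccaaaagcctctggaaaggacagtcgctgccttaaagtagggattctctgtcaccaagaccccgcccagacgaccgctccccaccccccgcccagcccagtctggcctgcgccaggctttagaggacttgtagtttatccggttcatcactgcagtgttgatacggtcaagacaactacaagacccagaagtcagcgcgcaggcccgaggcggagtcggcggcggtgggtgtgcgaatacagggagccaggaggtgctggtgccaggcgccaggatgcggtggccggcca
The match in Asns reads TGATGAAA and begins 23 bases before the start (position -23), and the Gpt2 window held no match. Over all 10 members, which all had a window, this core was found on either strand in 2, Asns and Pycr1 (TGATGCAA, beginning at position -103). Among 32851 mouse promoter windows of the same length 3.97% held it. A gene can have several windows, as Psat1 does, so this share counts windows and not genes. The E-box CACGTG, which MYC and related factors bind, was found in Aldh18a1 (beginning at position -59) and in 7.15% of all windows. A match is a description of these letters and not of binding, and a window without one says nothing about ATF4 at sites elsewhere in the gene.

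With rotenone, transcripts of 4 of the 8 measured enzymes rose when arrays were compared within their replicate number. Averaged over both genotypes, Gpt2 was 1.59-fold higher, Mthfd2 1.30-fold, Shmt2 1.23-fold and Asns 1.19-fold, and these 4 passed the threshold (an adjusted p under 0.05) with the number as a block. Psph at 1.25-fold, Phgdh at 1.12-fold, Psat1 at 1.09-fold and Aldh18a1 at 1.07-fold did not pass. In that fit 2.47% of 12393 genes passed in either direction and 1.53% passed as higher. Without the block none of the 8 passed, where 0.218% of genes did, and 4 of the 8 had an unadjusted p under 0.05, against 7.94% of genes (limma). The median over the 8 members was 0.27 on the log2 scale against 0.03 over all genes, and all 8 estimates were positive against 60.8% of genes. An array averages over all cells of a culture, so a changed share of a cell type and a changed amount of RNA per cell cannot be told apart. No leukocyte, epithelial, endothelial, muscle or hepatocyte marker passed for rotenone in either fit, while 1 of 8 neural markers, the beta-tubulin Tubb3, was lower in both (-1.37) and 1 of 11 fibroblast markers, the growth factor receptor Pdgfra, was lower with the block (-0.62).

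In the serine branch, no member passed in either fit. Phgdh, whose enzyme takes the first step away from glycolysis, read 12.41, 12.40 and 12.23 on arrays 1 to 3 of wild type with vehicle and 12.58, 12.64 and 12.38 with rotenone. Knockout cells gave 12.29, 12.15 and 12.32 with vehicle and 12.35, 12.42 and 12.43 with rotenone. Each rotenone array lay above the vehicle array of the same number, the wild-type ranges overlapped and the knockout ranges did not. On average the difference was 0.17 (95% CI 0.02 to 0.31, adjusted p = 0.267 with the block, limma), and the other 3 probe sets gave 0.18, 0.29 and 0.23, the highest of which had an adjusted p of 0.0538. Of the left-out probe sets, the one shared with Gm6756 gave 0.26 for rotenone and passed with the block (adjusted p = 0.0457, limma). The one shared with Gm8096 gave 0.25 and did not pass (adjusted p = 0.143 with the block).

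Psat1, the transaminase of the second step, read 11.92, 11.77 and 11.95 in wild type with vehicle and 12.05, 11.71 and 12.33 with rotenone. Knockout arrays gave 11.67, 11.56 and 11.95 with vehicle and 11.78, 11.63 and 12.03 with rotenone. The groups overlapped in both genotypes, and 1 of the 6 pairs, wild-type number 2, was lower with rotenone. Its mean difference of 0.12 did not pass (adjusted p = 0.452 with the block, limma). The other Psat1 probe set gave 0.19.

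Psph, the phosphatase that releases serine, read 10.62, 10.44 and 9.89 in wild type with vehicle and 10.91, 11.00 and 9.87 with rotenone. The knockout values were 10.23, 10.23 and 9.80 with vehicle and 10.69, 10.75 and 9.89 with rotenone. Arrays 1 and 2 were higher with rotenone in both genotypes, whereas arrays 3 of all 4 groups lay low and close together. Within pairs the differences were 0.29 and 0.56 for numbers 1 and 2 of wild type and 0.45 and 0.52 for those of the knockout, against -0.02 and 0.10 for number 3. The mean difference of 0.32 did not pass (adjusted p = 0.0676 with the block, limma). Without the arrays numbered 3 it was 0.46 and passed in the fit with the block (adjusted p = 0.000919).

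**Figure D1:**
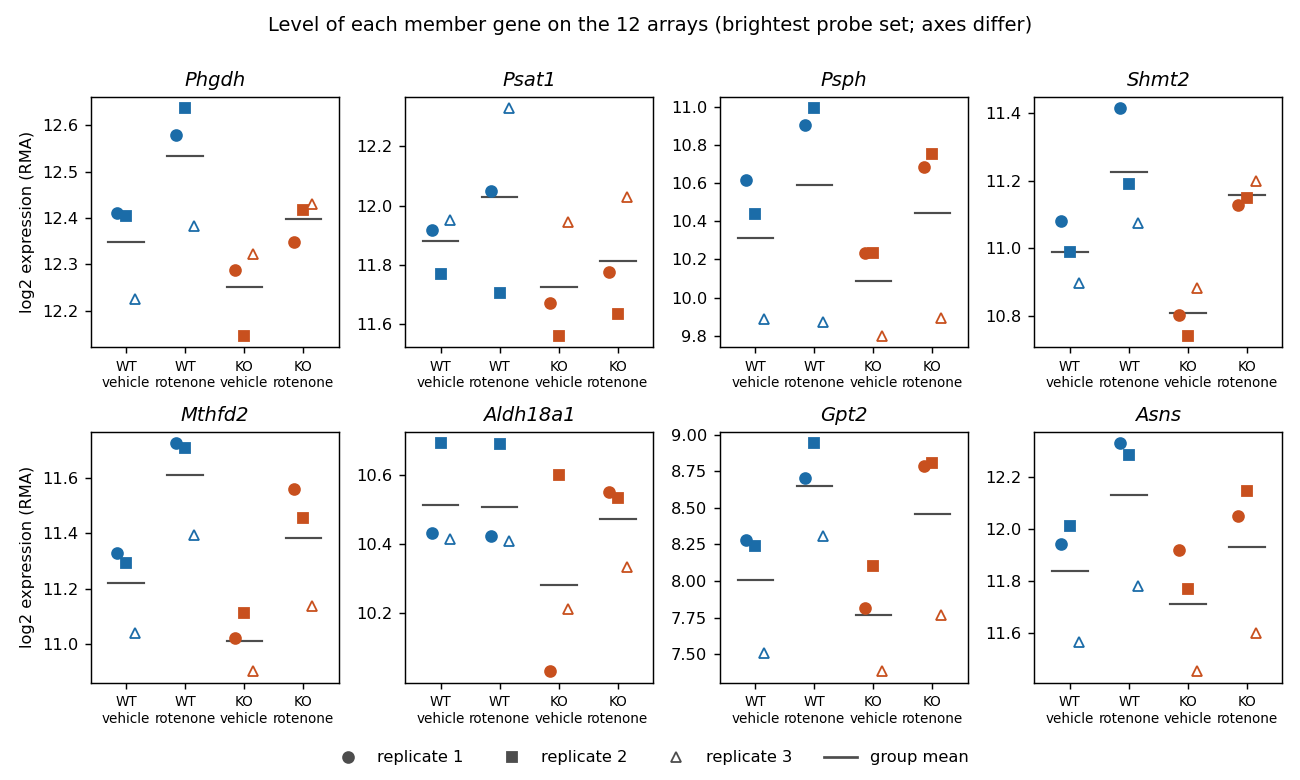
Log2 level (y axis, RMA) of each measured member gene on the 12 arrays by genotype and treatment (x axis), with wild type (WT) in blue and HtrA2 knockout (KO) in orange. Circles, squares and open triangles are arrays numbered 1, 2 and 3, and bars are group means of 3. Phgdh, Shmt2, Mthfd2, Gpt2 and Asns stand higher with rotenone at every number. The open triangles lie lowest in every group for Psph, Mthfd2, Gpt2 and Asns. The y axes differ between panels.

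Among the mitochondrial folate enzymes, Shmt2 read 11.08, 10.99 and 10.90 in wild type with vehicle and 11.41, 11.19 and 11.07 with rotenone. In the knockout it read 10.80, 10.74 and 10.88 with vehicle and 11.13, 11.15 and 11.20 with rotenone. All 6 pairs were higher with rotenone, by 0.18 to 0.41; the wild-type ranges overlapped narrowly and the knockout ranges did not. The mean difference was 0.29 (95% CI 0.15 to 0.44, adjusted p = 0.0364 with the block and 0.178 without, limma). This call rests on the brightest probe set: the other 3 gave 0.21, 0.10 and 0.17 and did not pass, and the mean over the 4 gave 0.19 (adjusted p = 0.155 with the block). The brightest carries the x suffix, and the only Shmt2 probe set without it is the one at 0.21 (adjusted p = 0.255 with the block, limma). With the block and 1 array left out it passed in 2 of 12 cases, without number 3 of wild type with rotenone or of knockout with vehicle, and the other 10 gave adjusted p from 0.0665 to 0.113.

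Mthfd2, whose enzyme is high in embryonic and dividing cells and low in most adult tissue, read 11.33, 11.29 and 11.04 in wild type with vehicle and 11.73, 11.71 and 11.39 with rotenone. In the knockout it read 11.02, 11.11 and 10.90 with vehicle and 11.56, 11.45 and 11.14 with rotenone. It was the only one of the 8 members whose rotenone and vehicle ranges were separate in both genotypes, a pattern found in 0.871% of genes. The 6 pairs differed by 0.24 to 0.54. The mean difference was 0.38 (95% CI 0.25 to 0.51, adjusted p = 0.00390 with the block and 0.212 without, limma), and its other probe set also passed with the block at 0.36. With the block it passed without any 1 of the 12 arrays, at an adjusted p of 0.0248 or less. It did not pass when all arrays numbered 1 (0.34, adjusted p = 0.178) or all numbered 2 (0.38, adjusted p = 0.119) were left out.

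Aldh18a1, the enzyme that starts proline synthesis, did not move with rotenone in a common direction. It read 10.43, 10.69 and 10.41 in wild type with vehicle and 10.42, 10.69 and 10.41 with rotenone, so same-numbered arrays differed by at most 0.01. Knockout arrays read 10.03, 10.60 and 10.21 with vehicle and 10.55, 10.53 and 10.33 with rotenone. Only the knockout pair numbered 1 showed a wide gap (0.52), from a low vehicle array. Averaged over genotypes the difference was 0.09 (95% CI -0.06 to 0.25, adjusted p = 0.597 with the block, limma), and its other 4 probe sets gave 0.00 to 0.09. At those 4 the wild-type pairs differed more than at the brightest, from -0.36 to 0.32.

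Gpt2, the mitochondrial alanine transaminase, read 8.28, 8.24 and 7.51 in wild type with vehicle and 8.71, 8.94 and 8.30 with rotenone. In the knockout it read 7.82, 8.10 and 7.38 with vehicle and 8.79, 8.81 and 7.77 with rotenone. The wild-type groups did not overlap, and in the knockout only the rotenone array numbered 3 fell among the vehicle arrays. All 6 pairs were higher with rotenone, by 0.39 to 0.97. The mean difference was 0.67 (95% CI 0.49 to 0.84, adjusted p = 0.000441 with the block and 0.399 without, limma). For this mean the other probe sets gave 0.73 and 0.45 and both passed with the block. Within a genotype Gpt2 was also the only member that passed with the block, at 0.64 in wild type (adjusted p = 0.0200, against 0.702% of genes called) and 0.69 in the knockout (adjusted p = 0.0149, against 0.331% called). In wild type the second probe set passed at 0.81 and the third, at 0.46, did not (adjusted p = 0.184), and in the knockout neither passed (0.65, adjusted p = 0.0507, and 0.43, adjusted p = 0.282). The mean over genotypes passed with the block without any 1 of the 12 arrays (adjusted p of 0.00452 or less), but not without all arrays numbered 2 (0.65, adjusted p = 0.0801). The wild-type call was lost without vehicle number 1, 2 or 3 or rotenone number 2 of wild type (adjusted p from 0.0694 to 0.179), and the knockout call without number 1 or 2 of either knockout group (0.120 to 0.183).

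Asns, asparagine synthetase, read 11.94, 12.01 and 11.57 in wild type with vehicle and 12.33, 12.28 and 11.78 with rotenone. In the knockout it read 11.92, 11.77 and 11.45 with vehicle and 12.05, 12.14 and 11.60 with rotenone. All 6 pairs were higher with rotenone, by 0.13 to 0.39, but arrays numbered 3 were so low that the groups overlapped in both genotypes. The mean difference was 0.25 (95% CI 0.12 to 0.39, adjusted p = 0.0445 with the block and 0.716 without, limma). Its other probe set gave 0.31 and passed with the block. With 1 array left out it passed in 1 of 12 cases, without number 3 of wild type with rotenone, and the other 11 gave adjusted p from 0.0544 to 0.145. It was also lost when arrays were centred on their medians (adjusted p = 0.0513).

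**Figure D2:**
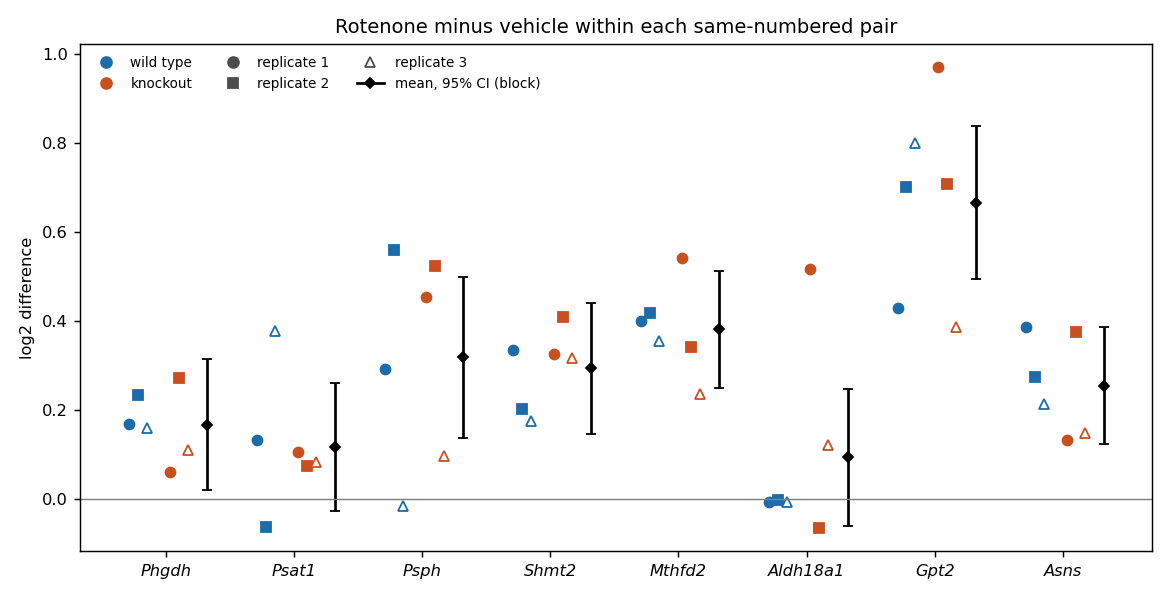
Rotenone minus vehicle (y axis, log2 difference) within each same-numbered pair of arrays for the 8 measured members (x axis). Blue and orange are wild type and knockout, circles, squares and open triangles are numbers 1, 2 and 3, and black diamonds are the mean with its 95% confidence interval in the limma fit with the replicate block. Phgdh, Shmt2, Mthfd2, Gpt2 and Asns lie above 0 in all 6 pairs.

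Counted over pairs, 5 of the 8 members (Phgdh, Shmt2, Mthfd2, Gpt2 and Asns) were higher with rotenone in all 6 pairs, against 7.24% of genes. Ranges did not overlap for 2 of 8 in wild type (Mthfd2 and Gpt2; 4.86% of genes) and for 3 of 8 in the knockout (Phgdh, Shmt2 and Mthfd2; 7.55%). Every one of the 23 probe sets had a positive estimate, and 8 passed with the block, all of them for Gpt2, Mthfd2, Asns or Shmt2. Of all 22626 probe sets 557 passed in that fit, 302 of them as higher. Probe sets of 1 gene measure the same transcripts, so the 23 are not separate observations. Probe sets of Shmt2 ran from 0.10 to 0.29 and those of Gpt2 from 0.45 to 0.73.

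**Figure D3:**
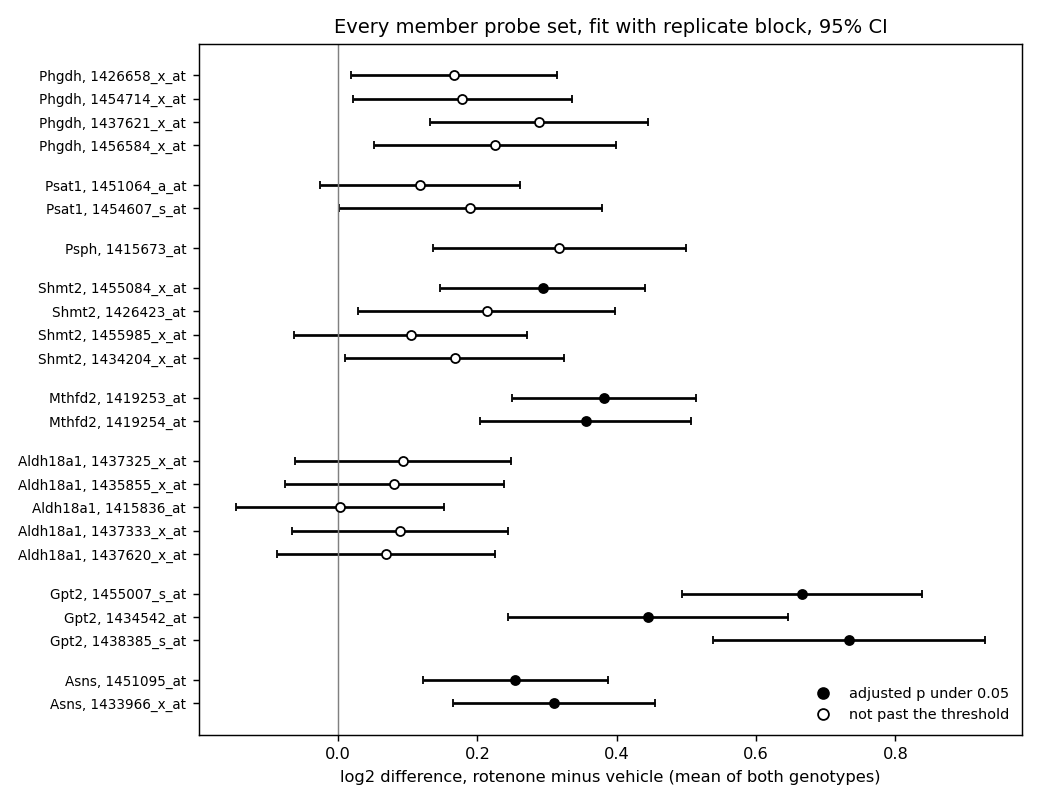
Rotenone minus vehicle, averaged over genotypes (x axis, log2 difference with 95% confidence interval, limma fit with the replicate block), for each of the 23 probe sets (y axis) grouped by gene, brightest first. Filled points passed the threshold. All 3 Gpt2 probe sets, both of Mthfd2 and both of Asns passed, 1 of 4 for Shmt2, and none for Phgdh, Psat1, Psph and Aldh18a1.

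Neighbouring steps of amino acid and folate metabolism were followed as 3 lists of enzymes and carriers. In the list for serine, glycine and folate 14 of 27 genes were measured, and none passed without the block. With the block Cth, the cystathionine gamma-lyase that releases cysteine, was higher by 0.46 (adjusted p = 0.00812, limma), and the list's median was 0.06. None of 9 measured genes for proline, arginine and ornithine (median 0.03) and none of 8 for glutamate, aspartate, alanine and branched chains (median 0.04) passed in either fit. These medians lie near the 0.03 of all genes, whereas that of the members was 0.27.

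Atf4 and other genes known to rise with it were described as another list, all 17 of which were measured. Without the block 2 passed, both higher: Stc2, a secreted glycoprotein, by 0.72, and Ddit4, an inhibitor of mTORC1, by 0.52 (adjusted p = 0.0415 each, limma). With the block 10 passed, all higher, the largest being Trib3, a pseudokinase that binds ATF4, at 1.09, Ddit3, which encodes CHOP, at 0.92, Chac1, a glutathione-degrading enzyme, at 0.92, Ppp1r15a, a phosphatase subunit for eIF2α, at 0.78, and Stc2. Atf4 itself was 0.40 higher (adjusted p = 0.0118 with the block and 0.550 without). The median of 0.40 lay above that of the members. Of 12 measured proliferation genes none passed without the block and 1, the mitotic kinase Plk1, was lower with it (-0.48, adjusted p = 0.0403).

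Between genotypes none of the 8 members passed the threshold, although every estimate was lower in the knockout. Averaged over treatments, all 8 estimates were negative, against 45.1% of genes, from -0.12 for Phgdh and Shmt2 to -0.22 for Mthfd2 and Gpt2, with a median of -0.17. In this comparison 0.0161% of genes passed without the block and 0.646% with it. Unadjusted p-values under 0.05 were found for 1 of the 8 members without the block, against 6.85% of genes, and for 5 with it, against 14.5%. All 8 estimates were also negative in vehicle alone (median -0.19) and in rotenone alone (median -0.17), and none passed in either fit, where 0.00807% of genes passed without the block in each treatment, and 0.0242% (vehicle) and 0.0565% (rotenone) with it.

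Mthfd2, Psat1 and Asns were lower in the knockout in all 6 same-numbered pairs, a pattern found in 4.66% of genes. For Mthfd2 the pairs ran from -0.31 to -0.14, and the mean was -0.22 (95% CI -0.35 to -0.09, adjusted p = 0.151 with the block, limma). Its second probe set gave -0.12. For Psat1 the pairs ran from -0.30 to -0.01 with a mean of -0.18 (adjusted p = 0.276), and for Asns from -0.28 to -0.02 with a mean of -0.16 (adjusted p = 0.302). Gpt2, Psph, Shmt2 and Aldh18a1 were lower in 5 pairs and Phgdh in 4. Of the other 15 probe sets 13 also had negative estimates, and 2 of Aldh18a1 were at 0.01 and 0.06. Mthfd2 lies near Htra2 on mouse chromosome 6 in the RefSeq table, with 16 genes between them, 14 of them protein coding. Of the 11 that were measured none passed in this comparison, and neither did Mthfd2. Estimates as large as that of Mthfd2 were found for Dqx1 (0.27, adjusted p = 0.180) and Pcgf1 (-0.24, adjusted p = 0.308, both with the block, limma). The others ran from -0.09 to 0.12.

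**Figure D4:**
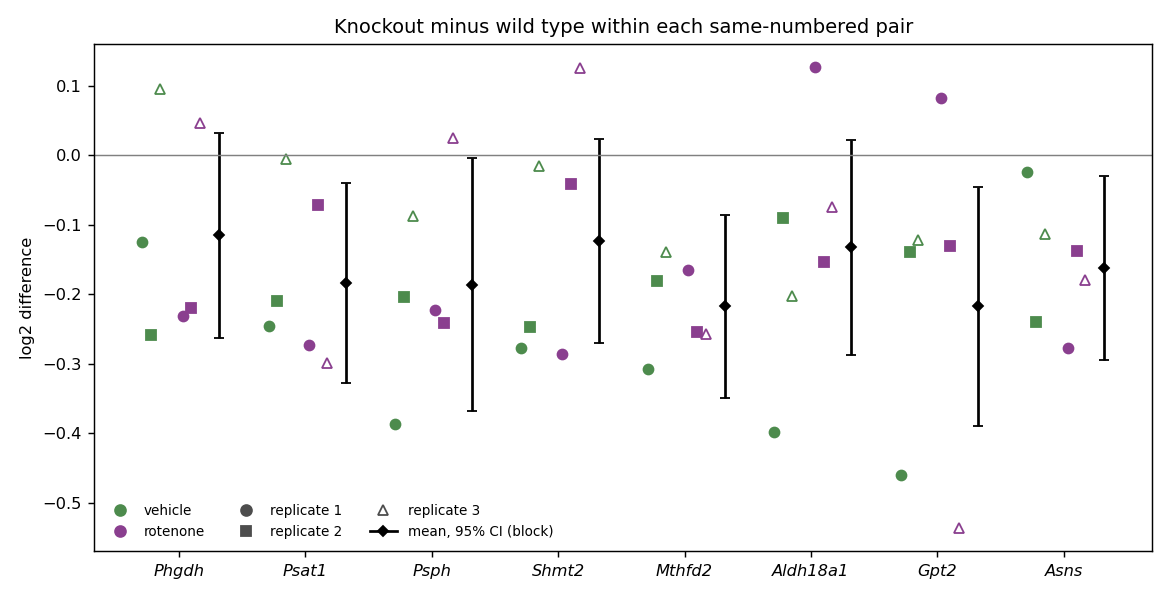
Knockout minus wild type (y axis, log2 difference) within each same-numbered pair for the 8 measured members (x axis). Green is vehicle and purple rotenone, circles, squares and open triangles are numbers 1, 2 and 3, and black diamonds are the mean with its 95% confidence interval in the limma fit with the replicate block. All 8 means lie below 0, and Psat1, Mthfd2 and Asns lie below 0 in all 6 pairs.

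The study's central question, whether the rotenone response depends on HtrA2, was tested for each member as the interaction. The rotenone difference of Gpt2 was 0.05 larger in the knockout (95% CI -0.30 to 0.39 with the block), that of Mthfd2 differed by -0.02 (-0.28 to 0.25) and that of Asns by -0.07 (-0.34 to 0.19). Among the others the estimates ran from -0.06 for Psat1 to 0.20 for Aldh18a1. At that Aldh18a1 probe set the widest pair was number 1 of the knockout, and the other probe sets gave 0.01, 0.28, 0.26 and 0.02. None of the 8 passed, and across all genes 0% passed in either fit (limma), with 82 of 22626 probe sets at an unadjusted p under 0.05 without the block and 295 with it. For Shmt2 the interval ran from -0.18 to 0.41 and for Phgdh from -0.33 to 0.26 with the block. The intervals of several members, Shmt2, Phgdh and Asns among them, thus include genotype differences as large as the rotenone differences themselves. Without the block this held for every member, with -0.43 to 0.40 for Mthfd2 and -0.89 to 0.98 for Gpt2.

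By replicate number, 4 members were lower and 1 was higher on the arrays numbered 3. Arrays numbered 3, compared with numbers 1 and 2 with group accounted for, differed for 5 of the 8 members, 4 lower and 1 higher, against 24.8% of genes (11.2% lower and 13.7% higher). Psph was lower by 0.75 (-0.75, 95% CI -0.94 to -0.55, adjusted p = 2.76e-05, limma). Gpt2 stood at -0.72 (95% CI -0.90 to -0.54, adjusted p = 2.31e-05), and Asns at -0.46 (95% CI -0.60 to -0.32, adjusted p = 0.000145). Mthfd2 was also lower (-0.28, 95% CI -0.42 to -0.14, adjusted p = 0.00566). Psat1 moved the other way, at 0.30 (95% CI 0.15 to 0.46, adjusted p = 0.00629). Phgdh (-0.06), Shmt2 (-0.05) and Aldh18a1 (-0.15) did not pass.

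These directions held array by array. Psph, Mthfd2, Gpt2 and Asns each had their lowest value of the group at number 3 in all 4 groups, as did 11.9% of genes, and Psat1 its highest, as did 12.0%. The second probe set of Psat1 (0.27), of Mthfd2 (-0.27) and of Asns (-0.43) and both other probe sets of Gpt2 (-0.66 and -0.81) passed in the same direction. The 3 enzymes of serine synthesis thus split by number: the second step was higher, the last was lower, and the first did not pass. Numbers 1 and 2 differed for none of the 8 members, where 0.178% of genes passed, and the largest estimate was that of Aldh18a1, higher in number 2 by 0.27 (adjusted p = 0.264).

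Whether the rotenone difference itself varied with the number was tested in a further fit, which added a term for rotenone in number 3. None of the 8 passed, and 0.00807% of genes did. Psph had the largest estimate, its rotenone difference being smaller by 0.42 in number 3 (-0.42, unadjusted p = 0.0146, adjusted p = 0.998, limma). For Gpt2 the pair differences averaged 0.70 in numbers 1 and 2 and 0.59 in number 3, and for Mthfd2 0.42 and 0.30.

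**Figure D5:**
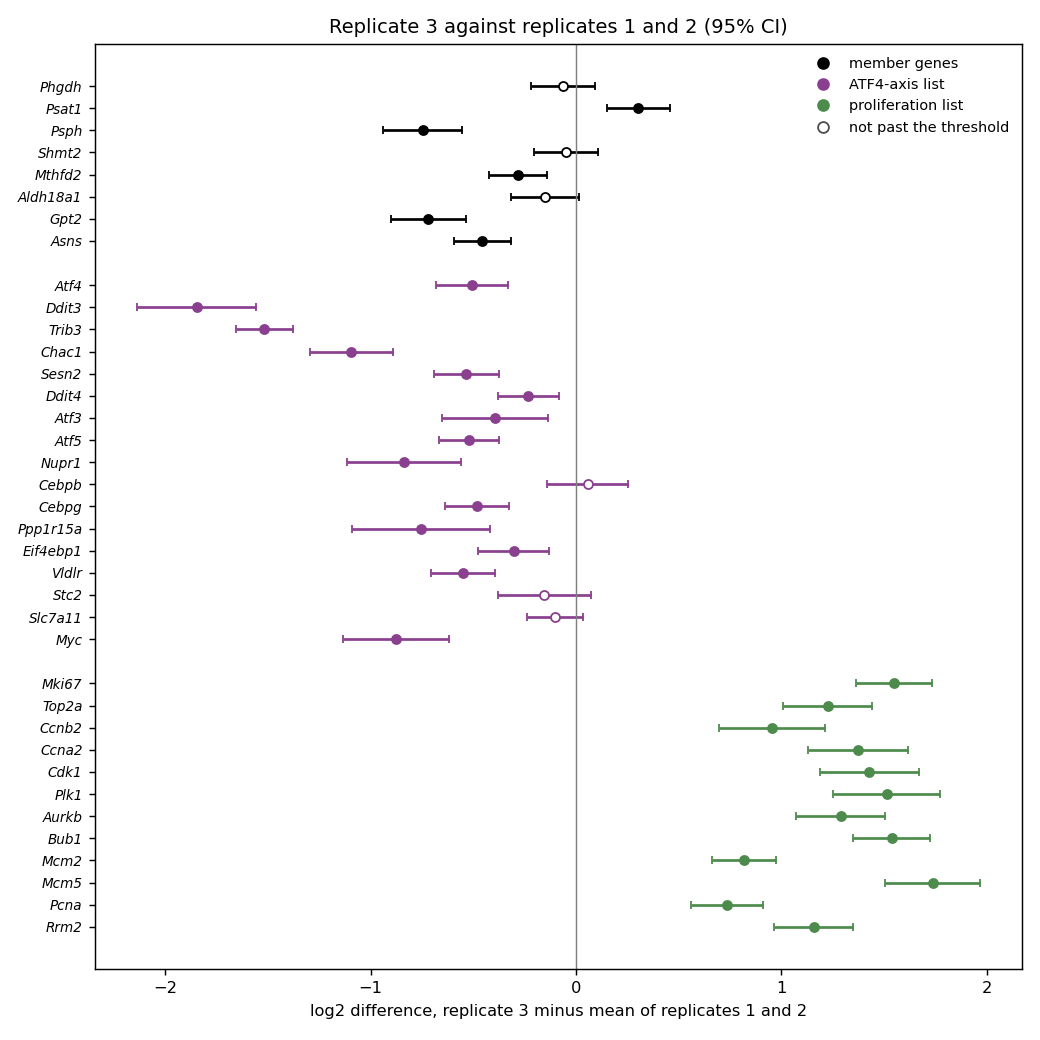
Difference of arrays numbered 3 from the mean of numbers 1 and 2 (x axis, log2, with 95% confidence interval, limma) for the 8 members in black, the 17 genes of the ATF4 list in purple and the 12 measured proliferation genes in green (y axis). Filled points passed the threshold. Psph, Gpt2, Asns and Mthfd2 lie to the left with 14 ATF4-list genes, and Psat1 lies to the right with all 12 proliferation genes.

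Other genes moved with the number as well, and their part in the members' differences was not tested. All 12 measured proliferation genes were higher in number 3 (median 1.33, Mki67 1.55), and their summed linear signal ran from 18479 to 20796 on arrays 3 against 7378 to 10193 on the others. In the ATF4 list 14 of 17 were lower (median -0.52), among them Ddit3 (-1.85), Trib3 (-1.52) and Atf4 (-0.51). Of the enzymes next to the members, Ahcy, which splits S-adenosylhomocysteine, was higher by 0.65, Mthfd1, the cytosolic folate enzyme, by 0.58, Glul, glutamine synthetase, by 0.42 and Slc19a1, a folate carrier, by 0.26. Lower in number 3 were Got1, the cytosolic aspartate transaminase, at -0.55, Cth at -0.41, Srr, serine racemase, at -0.29 and Fpgs, which adds glutamates to folate, at -0.29.

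Markers of cell types also differed with the number in some lists, read against the 13.7% of genes called higher and 11.2% called lower. Leukocyte markers were higher for 7 of 11, with summed linear signals of 1900 to 2066 on arrays 3 against 1160 to 1416, and epithelial markers for 3 of 9, with 1791 to 2285 against 1327 to 1566. Muscle markers were higher for 3 of 7 (4001 to 4412 against 3244 to 4206) and neural markers higher for 2 and lower for 2 of 8 (1679 to 2181 against 1765 to 2472). None of 8 endothelial markers passed (718 to 883 against 660 to 885), and of 6 hepatocyte markers 1 was lower (601 to 711 against 629 to 750). Fibroblast markers were higher for 2 and lower for 4 of 11, with sums of 74208 to 83440 against 81651 to 94044.

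Members varied together to different degrees over the 12 arrays, which share the replicate numbers and the treatment. Pearson's r between 2 members ran from -0.43 for Psat1 and Psph to 0.95 for Psph and Asns, and was 0.94 for Mthfd2 and Gpt2. Over the 6 rotenone minus vehicle differences r ran from -0.82 for Phgdh and Aldh18a1 to 0.79 for Phgdh and Asns, and was 0.72 for Mthfd2 and Gpt2, -0.79 for Psat1 and Psph and -0.71 for Aldh18a1 and Asns. The genes most like the mean of the 8 members over the 12 arrays were B3gnt2 (r = 0.98), Vldlr (0.96), Stbd1 (0.95), Chac1 (0.95) and Otub2 (0.94). Over the 6 differences they were Ehbp1l1 (0.99), Zcchc7 (0.99), Myod1 (0.97), Eprs (0.97) and Ung (0.97), and no gene was in both groups of 5. Each group holds the highest values among all other genes, so high r is partly due to that choice. Over the 6 differences the first group gave, in the same order, 0.77, -0.17, 0.84, 0.305 and 0.35. Over the 12 arrays the second group gave -0.58, 0.71, 0.11, 0.71 and -0.73. Vldlr and Chac1 also stand in the ATF4 list (-0.17 and 0.305 over the 6 differences). An r over 6 points is imprecise, and a link of the members to ATF4 was not tested.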

How the data were processed

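Total RNA of 12 mouse embryonic fibroblast samples was measured on Affymetrix expression arrays. The authors deposited log2 values and, per the submitters' processing notes, used RMA, for which no version or setting is named. RMA normally equalises array distributions, so a change shared by most genes would not show, and it compresses differences near background. Detection calls and intensities were not used here. The precision depends on the number of arrays, on the spread between them and on whether the replicate number is in the fit.

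Of 22690 probe sets, 64 array controls were left out. Of the 22626 tested, 20380 had 1 gene symbol in the platform annotation, 691 had several and 1555 none; 20359 of the 20380 matched the RefSeq table of GRCm38.p6. The 12393 genes were represented by their brightest probe set. The array's build is not given, so RefSeq coordinates are printed only for promoter windows.

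Differences were tested two-sided with limma 3.58.1 (lmFit, eBayes; R 4.3.3) in 1 fit of 4 group means, with Benjamini-Hochberg adjustment over 22626 probe sets and a threshold of 0.05. A second fit had the replicate number as a block, and comparisons between numbers came from fits with the number. Samples were grouped by title. Nothing says that replicates were separate cultures or embryos, so p-values measure only the spread between these arrays, which may be technical. All 18 same-numbered pairs of arrays deviated together from their group means (r from 0.289 to 0.829 across probe sets), and 11 of 12 arrays had their best partner within their number. The numbers were therefore taken to pair the arrays, from the data and not from the labels. Between numbers 1 and 2 this pairing was weaker. Same-numbered pairs within these numbers gave r from 0.289 to 0.554. Pairs of an array numbered 1 with an array numbered 2 gave r from -0.053 to 0.476. These ranges overlap, so a positive r alone does not show pairing there. The fits were tested on simulated data.

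The members and lists were chosen with earlier results of these data known. Every member is named. From the other lists the text names at most the 5 largest genes past the threshold in each direction, plus Atf4, Ddit3, Trib3, Mki67 and Htra2 as checks. Alternatives were another normalization, a filter on the dimmest 40% of probe sets, the mean over a gene's probe sets, a variance trend, fewer groups in the fit and arrays left out.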

Additional observations from a re-analysis of the deposited data

How the results depend on the processing

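No call of a gene changed direction under any alternative. Counts of members past the threshold in the comparisons of genotype, in the interaction and between replicate numbers stayed within 1.5 times their main value. The replicate block moved the rotenone counts, and the cause was not tested: with it 4 of 8 members passed instead of 0 for the mean of both genotypes, and 1 (Gpt2) instead of 0 within each genotype. It changed no other call of a member. With the block, the mean over probe sets gave 3, 1 and 1, arrays centred on the median 3, 1 and 1, and a variance trend 4, 1 and 1. Leaving out all arrays of 1 number with the block gave 0 to 5 for the mean, 0 to 1 in wild type and 0 to 2 in the knockout; the mean count was 1 without number 1, 0 without number 2 and 5 without number 3, so in those smaller fits of 8 arrays Mthfd2 was lost without number 1 (adjusted p = 0.178, limma) or 2 (0.119), and Gpt2 without number 2 (0.0801). Leaving out 1 array with the block gave 2 for the mean (Mthfd2 and Gpt2) in 10 of 12 cases, 4 in 1 case and 5 in 1 case. Within a genotype it gave 0 to 1 in wild type and 0 to 1 in the knockout. These leave-out fits of the block, and its combinations with another scale or summary, were chosen after seeing the data, except those without a whole number.

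Of the 60 measured genes in the other pathway lists, 2 passed for rotenone without the block. Normalizing by quantiles again gave 0, a variance trend 1, the mean over probe sets 1, and leaving out 1 array 0 to 2. With the block 12 passed, also with a variance trend, centred arrays or the mean over probe sets. Without numbers 1, 2 and 3 this was 4, 3 and 14, and with 1 array left out it was 8, 9, 10, 11, 12 or 13. Gene results that neither fit called gave 2153 alternatives, of which 5 passed, 4 of them for Psph with the block and without arrays numbered 3, and 90 had the other sign without passing. The fifth was Aldh18a1 in replicate 3 with the mean over its probe sets (-0.18, adjusted p = 0.0483). Signal over background is unknown here. With 3 arrays a group, the confidence interval of the interaction for Gpt2 ran from -0.30 to 0.39 with the block and from -0.89 to 0.98 without.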
